A study of Mus musculus with 6 samples.

Results

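This report describes the genes that fold, import and dispose of proteins in the endoplasmic reticulum (ER), together with the regulators of the unfolded protein response, in a mouse myeloid progenitor clone from which the oncogenic transcription factor Evi1 was withdrawn. The list names 38 genes by their function. It comprised 37 measured genes of 18193 in all, each read from the probe set of highest mean over the 6 arrays. Sec61g, the small gamma subunit of the import channel, had no probe set annotated to it alone and was not analysed here. All 37 measured genes lay above the median level of the probe sets, which was 5.24 on the log2 scale.

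Proteins that are secreted, stored in granules or placed in membranes enter the ER through the Sec61 channel, lose their signal peptide to the signal peptidase and fold with the help of chaperones such as BiP, the product of Hspa5. Disulphide bonds are formed by protein disulphide isomerases, which are re-oxidised by Ero1 enzymes. Proteins that fail to fold are drawn back into the cytosol and degraded, a route called ER-associated degradation. When unfolded proteins accumulate, the sensors Ire1 (Ern1), Atf6 and Perk (Eif2ak3) start the unfolded protein response. Ire1 splices the Xbp1 mRNA, and the resulting Xbp1 protein and cleaved Atf6 act on promoter elements of chaperone and degradation genes. Myeloid precursors make large amounts of granule protein, all of which passes through this compartment.

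All 6 arrays came from 1 clone, C6, described by its labels as haematopoietic progenitor cells on the Rosa26rtTA C57BL/6J background. The cells carried the vector pRRL.TET.Evi1.IRES.EGFP, from which doxycycline induces a codon-optimized murine Evi1. The medium of both groups contained SCF, Flt3 ligand and IL-11, each at 50 ng/ml, and IL-3 at 20 ng/ml. The doxycycline group (3 arrays) was kept under 1 µg/ml of the drug, and the withdrawal group (3 arrays) was taken 48 h after its removal. Loss of the transgene product and loss of the drug itself cannot be told apart in this design. The question put to these genes is how their transcripts differ between the induced state and its removal. Values are RMA-processed log2 intensities, and every difference is withdrawal minus doxycycline with its standard error from limma, a linear model with moderated variances (n = 3 arrays per group). The words rose and fell are kept for genes with a Benjamini-Hochberg adjusted p below 0.05 over all 45037 probe sets.

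Array medians ran from 5.22 to 5.27. Pairs of arrays correlated at 0.995 to 0.998 in the same group and at 0.994 to 0.996 across groups. Withdrawal replicate 3 and doxycycline replicate 1 stood apart from the other arrays on the second principal component, which held 31.9% of the variance. No label names separate cultures, so p-values reflect only how far these arrays scatter, possibly for technical reasons. Markers of haematopoietic progenitors were present, with means over the 6 arrays from 7.66 for Cd34 to 14.28 for Mpo in 8 genes, and those of 5 stromal genes ran from 3.41 to 5.75. In RNA from whole cultures, fewer cells of a type and less RNA per cell cannot be told apart.

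The promoters of these genes are known for the ER stress response element, ERSE, which Atf6 and Xbp1 bind. They were searched in the windows from 250 bases before to 50 bases after each RefSeq start in mouse assembly GRCm38.p6, a table that held 31 of the 38 genes. The motifs, read on both strands, were ERSE (CCAAT, 9 free bases, CCACG), ERSE-II (ATTGG, 1 free base, CCACG), the unfolded protein response element (TGACGTGG) and the composite element bound by Atf4 (TGATGNAAT). ERSE and ERSE-II share the letters CCACG. ERSE was present in 8 of the 31 genes, against 0.119% of all 32851 promoter windows. ERSE-II was present in 2 of the 31 genes, against 0.0365% of all windows. The other motifs matched 0 of the 31 genes and 0.676% and 0.965% of all windows. Counted by gene, ERSE was present in 0.137% and ERSE-II in 0.0444% of the 27025 genes with a window. The list was chosen by function, not by promoter sequence, but it holds genes already known for ERSE. The higher share was thus likely in advance and is not a result of these data. The matches cover 10 of the 31 genes, and the other 21 held neither ERSE nor ERSE-II. Each is written 5′ to 3′ in the direction of the motif, with its fixed bases in capitals, and placed by its most upstream base.
Calr, ERSE, chr8:84847075-84847093, 162 bases before the start: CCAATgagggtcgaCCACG
Canx, ERSE, chr11:50325800-50325818, 145 bases before the start: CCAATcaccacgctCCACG
Creld2, ERSE, chr15:88819520-88819538, 126 bases before the start: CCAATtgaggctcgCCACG
Dnajc3, ERSE, chr14:118937827-118937845, 105 bases before the start: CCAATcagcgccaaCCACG
Hsp90b1, ERSE, chr10:86705533-86705551, 107 bases before the start: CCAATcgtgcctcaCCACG
Hsp90b1, ERSE, chr10:86705638-86705656, 212 bases before the start: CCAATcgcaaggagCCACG
Hspa5, ERSE, chr2:34772025-34772043, 65 bases before the start: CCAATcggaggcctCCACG
Pdia6, ERSE, chr12:17266491-17266509, 98 bases before the start: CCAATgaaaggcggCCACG
Syvn1, ERSE, chr19:6046532-6046550, 44 bases before the start: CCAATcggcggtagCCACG
Dnajb11, ERSE-II, chr16:22857852-22857862, 7 bases after the start: ATTGGcCCACG
Herpud1, ERSE-II, chr8:94386377-94386387, 52 bases before the start: ATTGGgCCACG

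Whole windows are shown for 4 genes whose expression is compared below. They are Ero1a, the gene past the threshold, and Creld2 and Dnajb11, whose groups of arrays did not overlap. The last is Hspa5, whose groups overlapped on its brightest probe set. Capitals mark the fixed bases of the motifs, and the Ero1a window held 0 matches.
Ero1a promoter, chr14:45318523-45318822, - strand: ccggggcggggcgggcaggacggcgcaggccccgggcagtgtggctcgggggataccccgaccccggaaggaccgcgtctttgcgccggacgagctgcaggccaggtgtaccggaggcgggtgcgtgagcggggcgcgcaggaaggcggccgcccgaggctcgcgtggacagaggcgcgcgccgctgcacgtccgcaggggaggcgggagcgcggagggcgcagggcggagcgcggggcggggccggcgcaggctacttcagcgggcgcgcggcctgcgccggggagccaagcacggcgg
Creld2 promoter, chr15:88819396-88819695, + strand: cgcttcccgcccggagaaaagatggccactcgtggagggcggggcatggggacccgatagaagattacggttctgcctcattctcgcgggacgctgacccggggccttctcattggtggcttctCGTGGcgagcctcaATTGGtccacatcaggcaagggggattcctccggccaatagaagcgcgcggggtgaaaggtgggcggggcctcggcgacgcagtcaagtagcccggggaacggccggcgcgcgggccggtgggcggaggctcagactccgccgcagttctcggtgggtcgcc
Dnajb11 promoter, chr16:22857595-22857894, + strand: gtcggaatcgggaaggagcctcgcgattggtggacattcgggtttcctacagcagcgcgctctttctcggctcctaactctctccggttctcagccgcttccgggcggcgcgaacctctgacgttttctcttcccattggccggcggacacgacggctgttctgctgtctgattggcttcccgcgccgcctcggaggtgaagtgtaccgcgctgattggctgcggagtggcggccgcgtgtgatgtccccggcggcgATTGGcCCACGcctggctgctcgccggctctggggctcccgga
Hspa5 promoter, chr2:34771840-34772139, + strand: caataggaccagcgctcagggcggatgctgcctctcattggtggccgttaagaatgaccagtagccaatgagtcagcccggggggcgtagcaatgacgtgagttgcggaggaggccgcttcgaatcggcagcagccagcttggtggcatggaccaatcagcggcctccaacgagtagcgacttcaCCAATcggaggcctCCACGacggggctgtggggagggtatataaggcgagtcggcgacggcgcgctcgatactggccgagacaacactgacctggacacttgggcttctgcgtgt

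After withdrawal, 1 of the 37 measured genes rose and 0 fell in limma. The gene that rose was Ero1a, the oxidase that recharges protein disulphide isomerases, which was 1.28-fold higher. Among all genes, 1.20% rose and 1.57% fell. The share of 2.70% stood beside 2.77% of all genes past the threshold, which is close to it. At an unadjusted p below 0.05, 8 of the 37 genes were higher and 0 lower, against 8.00% and 8.26% of all genes in those directions and 16.3% in either. Since all 37 genes lay above the median probe set level, the nearer background is the 11143 genes above that level. Of these, 4.23% passed the threshold and 21.8% had an unadjusted p below 0.05, against 2.70% and 21.6% of the 37 genes. Counted in either direction, neither share exceeded that background. By direction, 1115 of the 11143 genes were higher and 1312 lower at that unadjusted p, whereas all 8 genes of the list were higher.

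The differences were small and leaned upward. Of the 37 genes, 30 had a difference above 0 and 7 below, and the median difference was 0.08, against 0.01 over all genes and 0.006 over the 11143 genes above the median probe set level. Differences above 0 made up 81.1% of these genes and 54.0% of all genes. In 16 genes every withdrawal array lay above every doxycycline array, and in 0 genes below, against 12.4% and 12.2% of all genes, or 24.7% in either direction. Among the 11143 genes above the median level, groups were separate in 33.7%, in either direction, with 1775 genes higher and 1977 lower. These shares are descriptions, and the genes of the list are not independent of one another. For 35 of the 37 genes the 95% interval of the difference lay within 0.5 log2 units of 0. When probe sets were averaged per gene in place of taking the brightest, the median difference was 0.03.

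**Figure D1:**
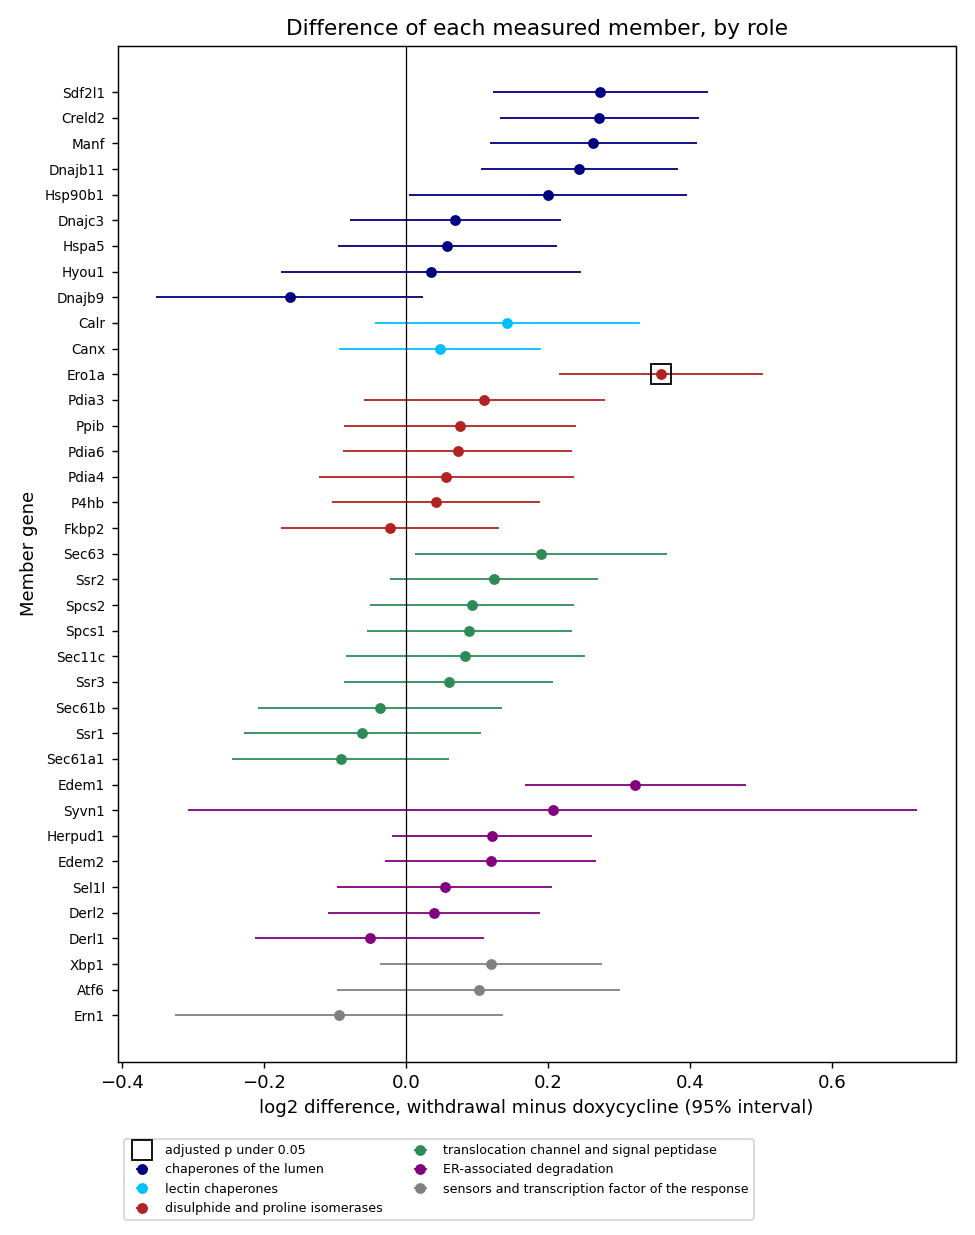
Log2 difference (withdrawal minus doxycycline) of each of the 37 measured genes on the horizontal axis, with its 95% interval from limma over 3 arrays per group, coloured by role, and a square around the gene with adjusted p below 0.05. Ero1a at 0.36 is the marked gene, 30 points lie right of 0 and Syvn1 has the widest interval.

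**Figure D2:**
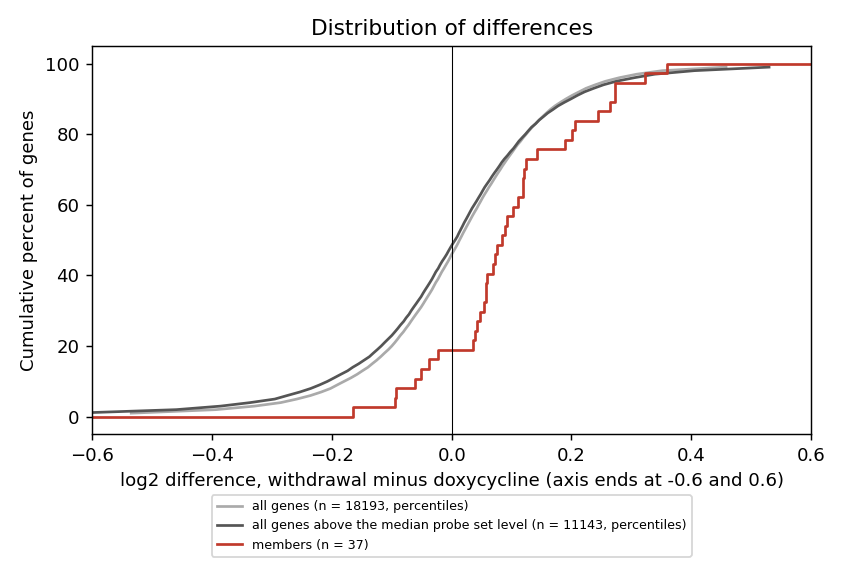
Cumulative percent of genes (vertical axis) against the log2 difference, withdrawal minus doxycycline, for the 37 measured genes as steps and for all 18193 genes and the 11143 genes above the median probe set level as percentiles. The steps lie to the right of both background curves over most of the range, with a median of 0.08 against 0.01 over all genes.

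Among the chaperones of the lumen, 0 of 9 genes passed the threshold in limma, 5 had an unadjusted p below 0.05, and the median difference was 0.20. Hspa5 encodes BiP, the HSP70 of the ER and the usual readout of the unfolded protein response. Its probe set measured 13.26, 13.27 and 13.15 on the withdrawal arrays and 13.17, 13.17 and 13.16 on the doxycycline arrays. The lowest withdrawal array lay below the doxycycline arrays, so the groups overlapped on this probe set. The difference was 0.06 ± 0.07 (limma adjusted p = 0.767), with a 95% interval from -0.10 to 0.21. The other probe sets of Hspa5 differed by 0.07 ± 0.06, with separate groups, and by 0.18 ± 0.10, with overlapping groups. Neither passed.

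The 4 largest differences of this role were those of Sdf2l1, Creld2, Manf and Dnajb11, and none of them passed. Dnajb11 encodes ERdj3, a J-domain cochaperone of BiP, and measured 10.85, 10.85 and 10.86 after withdrawal and 10.61, 10.60 and 10.63 under doxycycline. Sdf2l1 encodes a protein that travels in complex with ERdj3, and measured 11.86, 11.87 and 11.96 after withdrawal and 11.63, 11.59 and 11.65 under doxycycline. In both genes the arrays of each group lay close together and the groups were fully separate. The differences were 0.24 ± 0.06 for Dnajb11 and 0.27 ± 0.06 for Sdf2l1, and neither passed (limma adjusted p = 0.104 and 0.0959).

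Creld2, a secretory-pathway protein with disulphide isomerase activity, measured 10.00, 10.02 and 10.03 after withdrawal and 9.72, 9.75 and 9.76 under doxycycline. Manf, a BiP-binding protein that can be secreted under ER stress, measured 11.91, 11.86 and 11.87 after withdrawal and 11.57, 11.63 and 11.65 under doxycycline. Again no withdrawal array came near the doxycycline arrays. Creld2 differed by 0.27 ± 0.06 and Manf by 0.26 ± 0.06 (limma adjusted p = 0.0775 and 0.0960). Hsp90b1, the HSP90 of the ER, measured 13.11, 12.94 and 12.86 after withdrawal and 12.81, 12.81 and 12.69 under doxycycline, and did not pass (0.20 ± 0.08, limma adjusted p = 0.338). Its groups did not overlap, but their nearest arrays were close, and its other probe set differed by -0.07.

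On their brightest probe sets, the other lumenal chaperones were near 0 or below. Dnajc3, a J-domain protein that restrains Perk, differed by 0.07 and Hyou1, which exchanges the nucleotide of BiP, by 0.03, with overlapping groups. The other probe sets of Hyou1 disagreed, at 0.21 and, at a mean of 4.89, -0.21. Those of Dnajc3 ran from -0.14 to 0.04. The groups overlapped on all of these, and none passed. Dnajb9 encodes ERdj4, a J-domain protein that binds the lumenal part of Ire1 and is a known target of Xbp1. It measured 9.85, 9.73 and 9.61 after withdrawal and 9.93, 9.91 and 9.85 under doxycycline. It was thus the lowest of the 37 differences, at -0.16 ± 0.08 (limma adjusted p = 0.425), though 1 withdrawal array reached the doxycycline range.

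The lectin chaperones of the calnexin cycle, which hold glycoproteins while they fold, gave 0 calls in 2 genes. Calr, encoding calreticulin, differed by 0.14 ± 0.08 and Canx, encoding calnexin, by 0.05 ± 0.06. Of the 4 other probe sets of these genes, those of Calr were above 0 and those of Canx below.

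Of the 7 genes of disulphide and proline isomerization, 1 rose. Ero1a measured 12.08, 12.07 and 12.08 on the withdrawal arrays and 11.76, 11.68 and 11.72 on the doxycycline arrays. The withdrawal arrays were nearly equal and all lay above the doxycycline arrays. The difference was 0.36 ± 0.06 (limma adjusted p = 0.0343), a 1.28-fold difference with a 95% interval from 0.22 to 0.50 on the log2 scale. Its other probe sets differed by 0.28 ± 0.06 and 0.26 ± 0.07, also with separate groups, though neither passed. The call was lost in each fit that left out 1 of the 6 arrays (limma adjusted p from 0.0761 to 0.149), while the difference stayed between 0.34 and 0.38. Each such fit has fewer arrays, and each called fewer genes in all.

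The isomerases that Ero1a serves did not pass. The difference was 0.11 for Pdia3, the isomerase of the calnexin cycle, 0.07 for Pdia6, 0.06 for Pdia4 and 0.04 for P4hb, the classical protein disulphide isomerase. Ppib, a cyclophilin of the ER, differed by 0.08 and Fkbp2, a proline isomerase of another family, by -0.02. Of these 6 genes, the groups were separate in Pdia3 alone.

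Genes of import and signal peptide removal showed no calls among 9 measured, and 1 had an unadjusted p below 0.05. That gene was Sec63, a J-domain protein that recruits BiP to the channel, at 8.97, 8.92 and 8.93 after withdrawal and 8.63, 8.84 and 8.78 under doxycycline. The groups were separate, with doxycycline replicate 1 lowest. It differed by 0.19 ± 0.08 (limma adjusted p = 0.317), but 3 of its 4 other probe sets were below 0. The channel subunits Sec61a1 (-0.09 ± 0.07) and Sec61b (-0.04 ± 0.07) were slightly below 0. The translocon-associated subunits differed by -0.06 for Ssr1, 0.12 for Ssr2 and 0.06 for Ssr3. Ssr2 measured 10.87, 10.87 and 10.84 after withdrawal and 10.69, 10.78 and 10.74 under doxycycline, which were separate groups. The signal peptidase subunits were slightly above 0, with 0.08 for Sec11c and 0.09 for both Spcs1 and Spcs2.

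In ER-associated degradation, 0 of 7 genes passed in limma and 1 had an unadjusted p below 0.05. This was Edem1, which helps mark misfolded glycoproteins by mannose trimming. It measured 10.97, 10.96 and 10.86 after withdrawal and 10.59, 10.65 and 10.58 under doxycycline. All withdrawal arrays were higher, and withdrawal replicate 3 was the nearest to the doxycycline arrays. Edem1 differed by 0.32 ± 0.07, a 1.25-fold difference just short of the threshold (limma adjusted p = 0.0636), and its other probe set differed by 0.10 ± 0.06. Its relative Edem2 measured 9.71, 9.64 and 9.70 against 9.54, 9.53 and 9.61, with a difference of 0.12 ± 0.06, but its other probe set, at a mean of 3.58, differed by -0.38 with separate groups, and the average of both by -0.13.

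The ubiquitin ligase Syvn1 (Hrd1) and its partner Sel1l, which form the core of the export complex, differed by 0.21 ± 0.22 and 0.05 ± 0.07. Syvn1 was the most variable of the 37 genes, with a pooled SD of 0.36 against a median of 0.05. Its withdrawal arrays measured 9.81, 9.73 and 9.02 and its doxycycline arrays 9.04, 9.55 and 9.35, so the lowest array of each group was one of the arrays apart on the second principal component. Without those 2 arrays, the difference was 0.32. Herpud1, a membrane protein that organises the Hrd1 complex, measured 10.23, 10.20 and 10.18 after withdrawal and 10.08, 10.08 and 10.09 under doxycycline. The groups were separate on this probe set (0.12 ± 0.06), but the other probe set of Herpud1 differed by -0.07 with overlapping groups, and the average of both by 0.03. Derl1 (-0.05) and Derl2 (0.04), which form part of the exit channel, lay near 0.

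The regulators themselves gave 0 calls in 3 genes, none with an unadjusted p below 0.05. Xbp1 measured 13.05, 12.96 and 12.94 after withdrawal and 12.82, 12.91 and 12.86 under doxycycline, separate groups with a difference of 0.12 ± 0.07 (limma adjusted p = 0.491). These values do not tell spliced from unspliced Xbp1 mRNA. Atf6 measured 7.98, 8.04 and 8.00 after withdrawal and 7.74, 7.98 and 7.99 under doxycycline, and Ern1 measured 9.14, 9.07 and 8.84 against 8.99, 9.19 and 9.16. Both overlapped, with differences of 0.10 ± 0.09 for Atf6 and -0.09 ± 0.10 for Ern1. All 5 probe sets of Ern1 were below 0, and none passed.

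**Figure D3:**
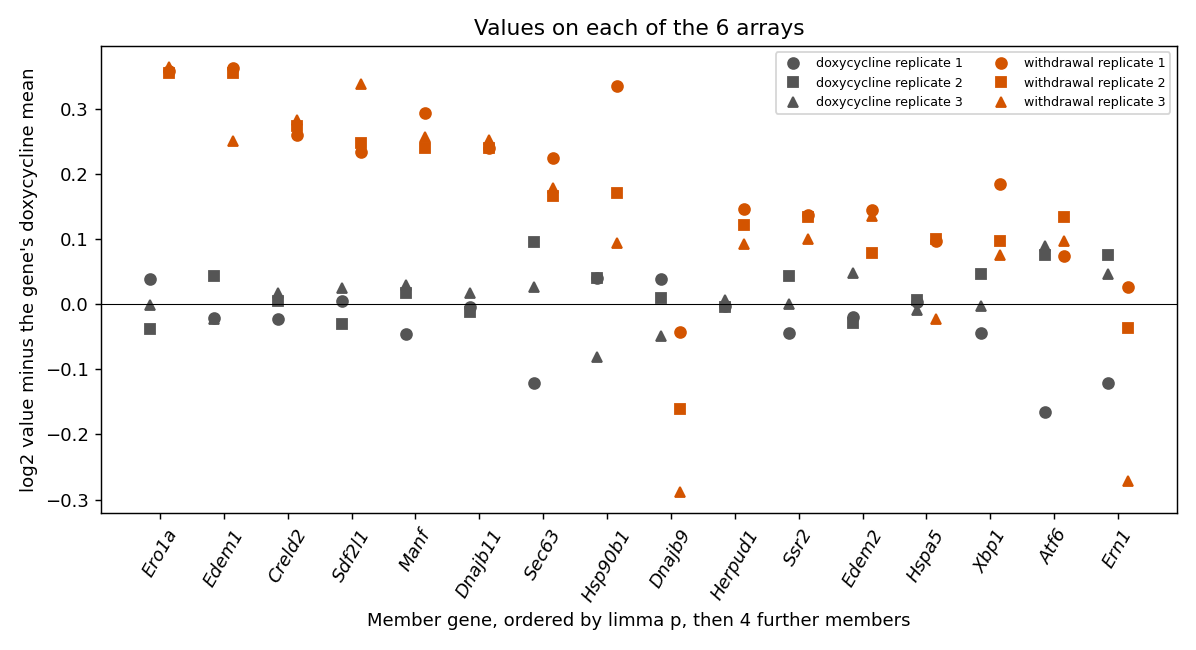
Log2 value on each of the 6 arrays minus the gene's own doxycycline mean (vertical axis), for the 12 genes with the smallest limma p and for Hspa5, Xbp1, Atf6 and Ern1, with grey symbols for doxycycline and orange for withdrawal and 1 symbol shape per replicate number. Ero1a, Edem1, Creld2, Sdf2l1, Manf and Dnajb11 show separate groups with withdrawal arrays higher, while the groups of Dnajb9, whose mean is lower after withdrawal, and of Hspa5, Atf6 and Ern1 overlap.

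Genes with and without an ERSE or ERSE-II in the promoter window were both among those with separate groups. All 10 genes with either element had a difference above 0, from 0.05 for Canx to 0.27 for Creld2. Their median was 0.13, and 5 had separate groups. These signs are those of the brightest probe sets. With averaged probe sets, Canx and Dnajc3 were below 0, at -0.03 and -0.05. Derl2, Edem2, Sec11c and Sec63, which are not among the 10, turned below 0 as well. Of the 20 measured genes whose window held neither element, 15 were above 0, with a median of 0.07 and a range from -0.16 to 0.36, and 9 had separate groups. Over all genes, 54.0% were above 0 and 24.7% had separate groups in either direction, 12.4% with withdrawal higher. Over the 11143 genes above the median probe set level, the shares above 0 and with separate groups were 51.4% and 33.7%. Creld2 and Hspa5 each carry 1 exact ERSE, at 126 and 65 bases before the start, and their differences were 0.27 and 0.06. Ero1a, Edem1 and Sdf2l1 had separate groups with no exact match in the window. The difference between genes with and without an element was not tested.

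Probe sets of the same gene often disagreed at these small sizes. The 37 genes had 94 probe sets, with 28 genes read by more than 1. Of the 57 probe sets other than the brightest, 35 had the same sign as the brightest and 22 the opposite sign, and 0 passed the threshold in limma. Creld2, Manf, Sdf2l1, Dnajb11 and Dnajb9 had 1 probe set each, so this check could not be made for them.

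**Figure D4:**
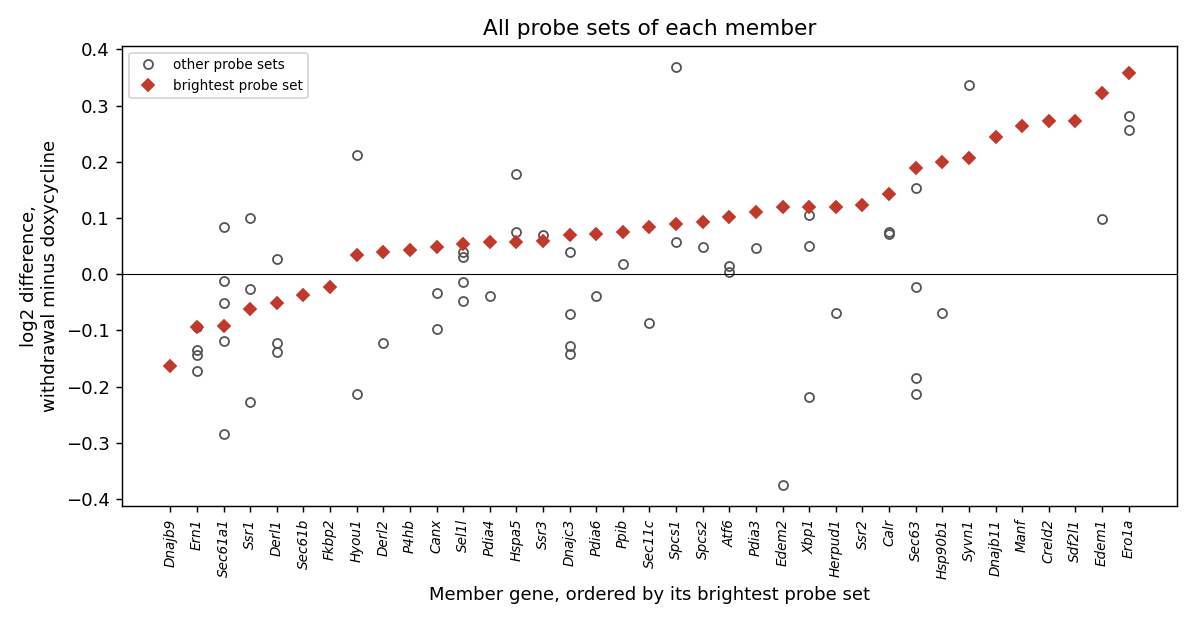
Log2 difference, withdrawal minus doxycycline (vertical axis), of the brightest probe set of each gene (diamonds) and of its other probe sets (open circles), with genes ordered by the brightest. The 3 probe sets of Ero1a all lie above 0.2, whereas 22 of the 57 open circles have the opposite sign to their diamond.

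Beyond these genes, 152 other genes of the same compartment were listed, of which 147 were measured. In limma 2 rose and 2 fell, which is 2.72% against 2.77% of all genes, and the median difference was 0.04. All 4 belong to folding and degradation. Of 31 measured lumenal chaperones and oxidoreductases, 1 rose and 2 fell, and of 27 measured degradation genes, 1 rose and 0 fell. None of 35 genes of N-glycosylation, 27 of targeting and translocation, or 27 sensors and regulators passed, with 3, 4 and 6 genes at an unadjusted p below 0.05.

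Prdx4, the peroxiredoxin of the ER, uses the hydrogen peroxide that Ero1 enzymes produce to oxidise disulphide isomerases. It fell on its brightest probe set, from 7.70, 7.65 and 7.71 under doxycycline to 6.58, 6.48 and 6.31 after withdrawal. The groups were more than 1 log2 unit apart, at -1.23 ± 0.08 (limma adjusted p = 0.000632), which is 0.427 times the doxycycline level. Its other probe sets differed by -0.92, -0.81 and -0.09, the last of them at a mean of 2.92. The call of Prdx4 held in all 17 alternative fits, with adjusted p up to 0.0253.

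Txndc5, a disulphide isomerase with thioredoxin domains, fell from 8.99, 9.03 and 9.15 to 8.45, 8.57 and 8.52. It differed by -0.54 ± 0.07 (limma adjusted p = 0.0142), and its other probe set by -0.46 ± 0.08, which also passed. The call of Txndc5 held in 11 of the 17 alternative fits. It was lost without doxycycline replicate 1, 2 or 3 or withdrawal replicate 2, at limma adjusted p up to 0.0724. It was also lost with replicate number as a block and without both arrays apart, at limma adjusted p up to 0.127. Ero1b, the other mammalian Ero1 oxidase, rose from 8.62, 8.65 and 8.63 to 9.00, 9.01 and 8.95. Its difference, 0.35 ± 0.06 (limma adjusted p = 0.0358), was close to that of Ero1a. Its other probe sets differed by 0.35 ± 0.17 and 0.07 ± 0.11, with overlapping groups, and neither passed. The call of Ero1b was lost in each fit that left out 1 array, at limma adjusted p from 0.0626 to 0.158. It held in 7 of the 17 alternative fits, against 9 for Ero1a. Unlike that of Ero1a, it was lost with averaged probe sets and after centring arrays on their medians.

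Edem3, the third mannosidase-like protein of the Edem family, rose from 9.28, 9.23 and 9.29 to 9.80, 9.74 and 9.85. The difference was 0.53 ± 0.07 (limma adjusted p = 0.00942), and its other probe set passed as well, at 0.57 ± 0.09. The call held in 12 of the 17 alternative fits. Leaving out doxycycline replicate 1, 2 or 3 ended it, at limma adjusted p up to 0.0608. It was also lost with replicate number as a block and without both arrays apart, at limma adjusted p up to 0.1225.

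**Figure D5:**
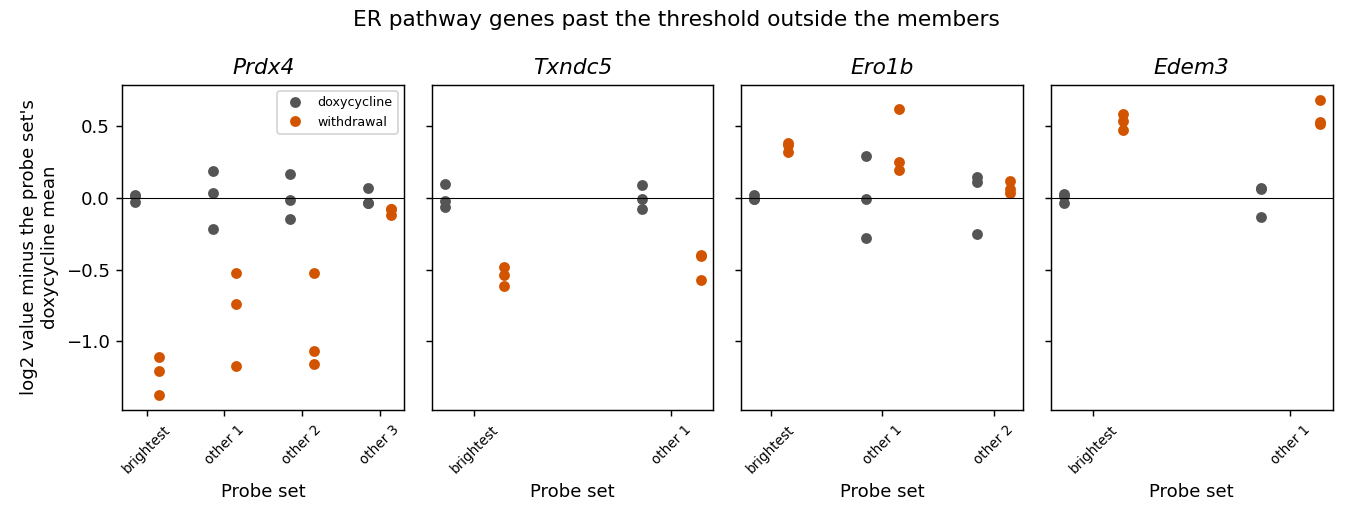
Log2 values on each array minus the probe set's doxycycline mean (vertical axis) for every probe set of Prdx4, Txndc5, Ero1b and Edem3, grey for the 3 doxycycline and orange for the 3 withdrawal arrays. The brightest probe sets of Prdx4 and Txndc5 lie below 0 after withdrawal and those of Ero1b and Edem3 above, with no overlap.

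Among the genes of these lists that did not pass, the largest differences were those of the sulphydryl oxidase Qsox2 (0.38 ± 0.08) and the proline isomerase Fkbp11 (0.34 ± 0.08). On the degradation list they were Fam8a1 (-0.25 ± 0.11) and Aup1 (0.22 ± 0.07), both partners of the export machinery. For N-glycosylation they were Uggt1, the glucosyltransferase that senses unfolded glycoproteins (0.25 ± 0.08), and Prkcsh, the beta subunit of glucosidase II (0.24 ± 0.09). For targeting they were Emc9, of the ER membrane complex (-0.31 ± 0.06, limma adjusted p = 0.0579), and Get1, a receptor for tail-anchored proteins (-0.26 ± 0.07). For regulators they were the transcription factor genes Cebpb (0.30 ± 0.08) and Gtf2i (-0.29 ± 0.06).

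The cargo of the compartment was listed separately. Of 17 measured genes of granule and secreted proteins, 8 rose and 2 fell, beside 1.20% and 1.57% of all genes, with a median difference of 0.32. The largest rise was that of Mcpt8, a basophil protease (1.36 ± 0.06, limma adjusted p = 0.000139). Those that fell were the proteases Mcpt2 (-0.99 ± 0.13) and Gzmb (-0.35 ± 0.06). Mcpt2 was dim, at a mean of 4.82 over the 6 arrays, below the median probe set level of 5.24. Elane, neutrophil elastase, differed by 0.74 ± 0.07, Epx, eosinophil peroxidase, by 0.75 ± 0.07 and Prg2, the major basic protein, by 0.44 ± 0.06 (limma adjusted p = 0.0028, 0.00302 and 0.0171). The log2 of the summed signal of the 17 genes ran from 17.56 to 17.57 after withdrawal and from 17.28 to 17.29 under doxycycline. Its part in the differences of the folding genes was not tested. Of 5 macrophage markers 2 fell, Cd68 and Csf1r, with log2 summed signals from 12.16 to 12.22 after withdrawal and from 12.49 to 12.51 under doxycycline. Of 8 progenitor markers, Cd34 fell (-0.51 ± 0.10, limma adjusted p = 0.0463), but 5 were above 0 and 3 below. At an unadjusted p below 0.05, 4 of the 8 were higher and 1 lower. The log2 summed signals of the 8 ran from 15.28 to 15.30 after withdrawal and from 15.09 to 15.14 under doxycycline. Mpo, the brightest of the 8 at a mean of 14.28, weighs most in this sum. It is also 1 of the 17 cargo genes, so the 2 sums are not separate readings. Of 4 megakaryocyte markers, all below 0, Pf4 fell (-0.59 ± 0.07, limma adjusted p = 0.00807), with log2 summed signals from 10.48 to 10.60 after withdrawal and from 10.83 to 10.99 under doxycycline. Ighm, on the B cell list, fell by 0.85 and Cdh1, on the epithelial list, rose by 0.87 (limma adjusted p = 0.00237 and 0.00221). The other measured B cell genes were above 0, at 0.25 for Cd79a, 0.16 for Ms4a1, 0.11 for Sdc1 and 0.09 for Jchain. The other epithelial genes differed by 0.03 for Epcam, -0.01 for Krt8 and -0.08 for Krt18. None of these passed. None of the stromal, erythroid, T cell or endothelial markers passed in limma, with 1, 2, 0 and 0 of them at an unadjusted p below 0.05. The part of these markers in the differences of the folding genes was not tested.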

How the data were processed

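Expression was measured on 6 one-colour arrays, 1 per sample, with biotin-labelled amplified cDNA as target, per the labels' protocols. The deposited values are log2 intensities per probe set made by the authors with RMA, per the submitters' processing notes. RMA corrects background and equalizes array distributions, which would hide a general shift, and differences of dim probe sets are compressed. The sources used here do not state its version or filters. The table held 45101 rows, of which 64 manufacturer controls were left out. The platform annotation gave 1 symbol for 34945 probe sets, several for 932 and none for 9160, and RefSeq identifiers changed 0 symbols.

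Groups came from the sample titles. The 3 withdrawal and 3 doxycycline arrays were tested in limma (3.58.1, R 4.3.3; lmFit, then eBayes) with no covariate, 4 residual and 3.54 prior degrees of freedom, two-sided p-values and Benjamini-Hochberg adjustment over 45037 probe sets. No pseudocount was needed. On simulated data with the real means and spreads, 87% of 100 probe sets changed by 1 and 49% of 100 changed by 0.5 were recovered, with 2 false among 138 calls over 45037 probe sets; smaller changes such as those reported here were not simulated. Figures used matplotlib 3.10.9 in Python 3.11.15. Promoter sequences are from RefSeq, GRCm38.p6.

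All gene lists, the 38 genes, the other pathway genes, the cargo genes and the markers included, group genes by function and were chosen with earlier results of these data known. Any gene of the list of 38 could be named, with values on every array for those past the threshold, the 12 with the smallest p and Hspa5, Xbp1, Atf6 and Ern1, and elsewhere those the account turns on. Of the other pathway lists, up to 4 called genes and the 2 with the largest difference among the rest were named. The 17 alternatives left out each array, left out both arrays apart, or changed the normalization, variance model, weights, covariates, filter, adjustment or probe set choice. The number of arrays limits the precision.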

Additional observations from a re-analysis of the deposited data

How the results depend on the processing

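Of the 37 genes, 0 fell in any of the 17 alternatives. The number that rose, 1 in the report, was 0 in each fit without 1 array, with the replicate block and without withdrawal replicate 3 and doxycycline replicate 1 together (both arrays apart). It was 2 with adjustment over 1 probe set per gene, with the interquartile range as covariate and after repeated quantile normalization, 3 with array weights, 5 with averaged probe sets, and 6 with trend and robust options or with only probe sets above the median level. The 6 were Ero1a, Edem1, Creld2, Sdf2l1, Manf and Dnajb11 in either of these last fits. The labels do not say whether arrays of the same replicate number were paired. The correlations of same-numbered deviations were -0.304, 0.460 and -0.0326, which cannot decide this with 3 arrays per group. Of the other ER genes, 2 rose and 2 fell in the report. These counts were 4 and 4 with array weights, 6 and 6 above the median level, 11 and 8 with trend and robust options, 0 and 1 with the replicate block and without both arrays apart, and 0 to 1 and 1 to 2 without 1 array; 1 rose after centring arrays on their medians. Of all genes 218 rose and 286 fell, against 417 and 489 with array weights, 498 and 580 above the median level, 634 and 732 with trend and robust options, 63 and 107 with the replicate block, 22 and 55 without both arrays apart, and 57 to 152 and 94 to 182 without 1 array; 332 rose with averaged probe sets. The median difference of the 37 genes was 0.0253 with averaged probe sets and 0.0686 to 0.0959 without 1 array. Signs turned only in genes that did not pass: with averaged probe sets in Canx (-0.0278), Derl2 (-0.0417), Dnajc3 (-0.0466), Edem2 (-0.128), Sec11c (-0.00220) and Sec63 (-0.0158), without shared or cross-hybridising probe sets in Canx (-0.0329) and Derl1 (0.0277), without both arrays apart in Pdia4 (-0.000971), and without 1 array in Hyou1 (-0.0345 to 0.0974) and Fkbp2 (-0.0554 to 0.0105). Some of these fits have fewer arrays or genes tested, but the cause of the changes was not tested.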

Other observations

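One probe set of Xbp1 varied far more between arrays than the others of that gene. It measured 7.31, 7.24 and 9.28 after withdrawal and 9.21, 7.09 and 8.18 under doxycycline, with a difference of -0.22 ± 0.66, whereas the other 3 probe sets differed by 0.05 to 0.12. The 2 highest values were those of withdrawal replicate 3 and doxycycline replicate 1, the arrays apart on the second principal component.

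Of the stress genes downstream of Perk, Atf4 differed by 0.25 ± 0.06 and Ddit3, which encodes Chop, by 0.18 ± 0.07, while Trib3, a target of both, differed by -0.26 ± 0.09. None passed (limma adjusted p = 0.111, 0.320 and 0.242). On the same list of sensors and regulators, Chac1 differed by 0.15 ± 0.06 and Ppp1r15a by 0.02 ± 0.12. Atf3 differed by -0.001 ± 0.07 and Eif2ak3, the gene of Perk, by -0.02 ± 0.07. These did not pass either. All genes of this paragraph were named after their values were seen.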
